A study of Caenorhabditis elegans with 6 samples.

Results

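The genes described here encode the main building blocks of the basement membrane of *Caenorhabditis elegans*. They are the type IV collagens *emb-9* and *let-2*, the laminin chains *epi-1*, *lam-3*, *lam-1* and *lam-2*, the nidogen *nid-1*, the perlecan *unc-52*, the type XVIII collagen *cle-1* and the papilin *mig-6*. They were picked out by a list of symbols, and make up 10 of the 46726 genes counted. All 10 were found in the counts, and all 10 had enough counts to be tested.

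Basement membranes are thin sheets of extracellular matrix that underlie epithelia and surround muscle, gonad and pharynx. Laminin trimers assemble at cell surfaces into a first network, type IV collagen trimers form a covalently linked second network, and nidogen and perlecan bind to both. In *C. elegans* most type IV collagen is made by body wall muscle and the somatic gonad and is deposited on other tissues, and perlecan anchors the contractile filaments of body wall muscle through the hypodermis to the cuticle.

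RNA was measured in lysates of whole animals, 3 biological replicates of wild-type N2 and 3 of the *mbl-1(tm1563)* strain. *mbl-1* encodes the worm's muscleblind protein, an RNA-binding regulator of splicing, and tm1563 is a deletion in it, so the mutant group stands for a single allele. Animals of both strains were grown at 20 °C on HT115 bacteria with the empty RNAi vector and moved at the L4 stage to 10 µM 5-fluorouracil, which keeps progeny from hatching. They were collected as day 2 adults, on day 5 from hatch. Each library came from many animals and all their tissues together, so fewer cells of a type and less RNA per cell cannot be told apart in any value below.

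Each library held between 17574738 and 20750318 counts, spread over 17078 to 17564 genes. *mbl-1* (WBGene00019347, chromosome X from 16978608 to 17010302) had 233, 245 and 228 counts in N2 replicates 1, 2 and 3 and 70, 138 and 106 in the mutants. The mutant libraries did not reach the N2 range, and its log2 fold change was -1.14 ± 0.23 (standard error; edgeR adjusted p = 0.0342). Counts per gene do not separate the deleted sequence from the rest of the mRNA. Without N2 replicate 1, 2 or 3 or mutant replicate 3, the edgeR adjusted p of *mbl-1* was 0.132, 0.0991, 0.142 and 0.154. Reads that aligned to several places came to 9.74 to 9.87% in N2 and 7.34 to 8.08% in the mutants, and the authors left them out of the gene counts. Mutant replicates 1 and 3 stood apart from the other 4 libraries by a decline of level with gene length, which is described after the members' values. All levels below are CPM, that is, a gene's counts as a share of its library's total after scaling by edgeR's TMM method, and levels of different genes are compared only per kb of exon.

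Of the 10 basement membrane mRNAs, 9 had a mean level in the mutants below that of N2, from 48.3% of the N2 mean for *nid-1* to 82.2% for *lam-1*, and *cle-1* stood at 102%. A gene was called where its adjusted p was under 0.05 (quasi-likelihood test of edgeR, Benjamini-Hochberg adjustment over 12335 genes) and its change at least 2-fold. *nid-1* was called lower, against 1.14% of all tested genes. With the limit on the fold change dropped, *nid-1* and *emb-9* passed, against 3.67% of tested genes lower and 1.79% higher, and no member passed in the other direction. At an unadjusted p under 0.05, 9 members were lower and 0 higher, against 14.1% and 9.79% of all tested genes. With DESeq2, 5 members passed the adjusted threshold as lower and 0 as higher, against 5.34% and 3.87% of the genes it tested. In 8 members the 3 mutant libraries lay below the 3 N2 libraries without overlap, a pattern found in 17.9% of the genes tested. No member had all its mutant libraries above N2, which 14.7% of tested genes had. The median log2 fold change of the members was -0.40, and that of all tested genes was -0.04.

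In N2 the levels per kb of exon spanned a wide range. *let-2* was highest with 51.7 ± 2.85 CPM per kb (SD, n = 3), followed by *emb-9* with 31.8 ± 0.450, *nid-1* with 17.2 ± 0.754, *lam-1* with 13.7 ± 0.138 and *mig-6* with 12.5 ± 0.520. Then came *epi-1* with 7.70 ± 0.196 CPM per kb, *lam-2* with 7.33 ± 0.0946, *cle-1* with 4.85 ± 0.182, *unc-52* with 4.43 ± 0.402 and *lam-3* with 1.70 ± 0.273. Of the neighbours in this order, *cle-1* and *unc-52* overlapped among the N2 libraries, and the others did not. Some of these lay close, such as *epi-1* (7.54 to 7.92 CPM per kb in N2) and *lam-2* (7.22 to 7.41). In the mutants *let-2* was still highest at 36.6 ± 7.16 CPM per kb (SD, n = 3) and *lam-3* lowest at 1.31 ± 0.178. *nid-1* moved from the place above *lam-1* to 8.31 ± 0.862 CPM per kb, below the 11.3 ± 1.17 of *lam-1*. Together the 10 mRNAs made up 962, 964 and 1007 CPM in the N2 libraries, where 962 CPM are 0.0962% of the scaled counts, and 595, 824 and 666 CPM in mutant replicates 1, 2 and 3. Every mutant library was thus below every N2 library in this sum.

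**Figure D1:**
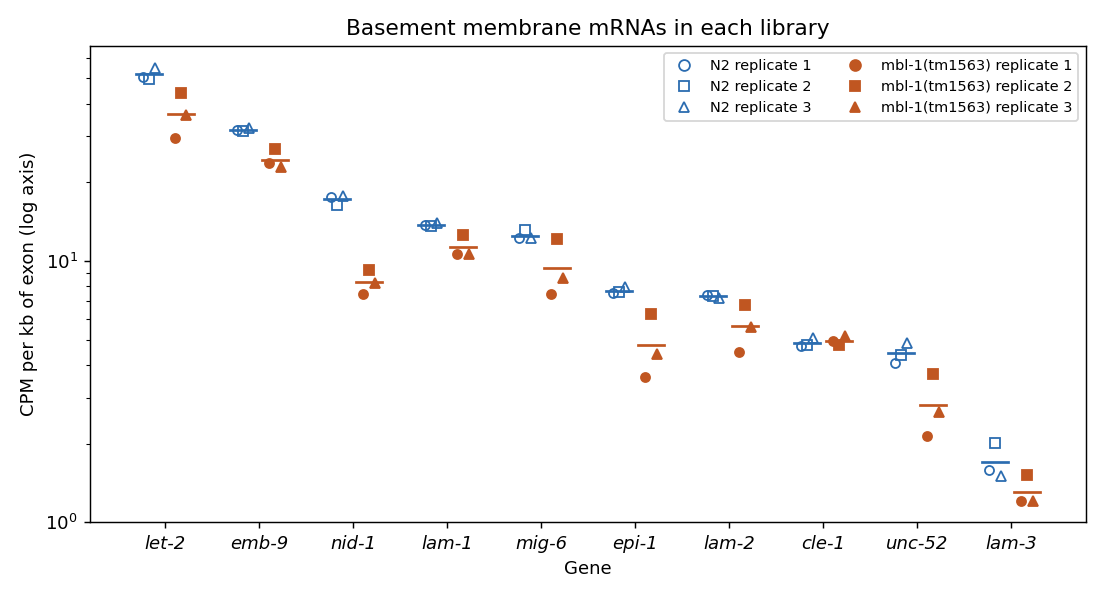
Level of each basement membrane gene in CPM per kb of exon (log axis), one symbol per library, with N2 open and *mbl-1(tm1563)* filled and a bar at each mean of 3 libraries. Genes run from *let-2* (51.7 CPM per kb in N2) to *lam-3* (1.70), and *nid-1* shows the widest gap between the strains.

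Both type IV collagen chains had lower mean levels in the mutants, at 76.9% of N2 for *emb-9* and 70.7% for *let-2*. Only *emb-9* passed the adjusted threshold. It did not pass once the trend with gene length was removed (log2 fold change -0.01, edgeR adjusted p = 0.965), as described after the members. *emb-9* (WBGene00001263, chromosome III from 9336881 to 9344447) encodes the alpha1-type chain of the collagen trimer. Its level was 178, 176 and 181 CPM in N2 replicates 1, 2 and 3 and 132, 151 and 128 CPM in the mutants. The N2 libraries lay within a few CPM of each other, and even the highest mutant library, replicate 2, lay below them. The log2 fold change was -0.38 (standard error 0.08, 95% interval -0.56 to -0.20, adjusted p = 0.0355, edgeR with Benjamini-Hochberg adjustment). It did not pass without N2 replicate 1 (-0.38, adjusted p = 0.151), N2 replicate 2 (-0.39, 0.111), N2 replicate 3 (-0.37, 0.165) or mutant replicate 3 (-0.33, 0.169). The summed level of 11 body wall muscle markers was also lower in every mutant library (1139 to 1359.5 CPM, against 1404 to 1601 in N2). Of these markers 7 were below N2 in their mean and 4 were not. The largest part of the sum, *unc-54*, has 6204 bases of exon, and the 4 that were not below N2 have 979 to 2383. Among those below N2, *unc-27* (933 bases) and *hlh-1* (1196) are short as well. With the trend with gene length removed, 7 of the 11 were below 0 and 0 passed the adjusted threshold as lower. The part of body wall muscle in the collagen values was not tested.

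*let-2* (WBGene00002280, chromosome X from 16380597 to 16389340) encodes the alpha2-type chain, which joins EMB-9 in the trimer. It was at 295, 289 and 319.9 CPM in N2 and 172, 256 and 211 CPM in the mutants. The strains did not overlap, and mutant replicate 2 lay closest to N2. Its log2 fold change was -0.50 (standard error 0.14, interval -0.81 to -0.18), which missed the threshold (adjusted p = 0.0770, edgeR with Benjamini-Hochberg adjustment). Within a library the ratio of *emb-9* to *let-2* per kb averaged 0.615 in N2 and 0.675 in the mutants. On the log2 scale this was -0.70 ± 0.06 against -0.57 ± 0.21 (SD, n = 3 per strain; two-sided exact permutation test, p = 0.5). Mutant replicate 1 was set apart here, at -0.33, and the other mutant libraries, at -0.71 and -0.67, fell in the N2 range of -0.77 to -0.66.

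The laminin chains had mean levels from 61.8 to 82.2% of N2 in the mutants, and none passed the adjusted threshold. Every *C. elegans* laminin trimer holds the beta chain LAM-1, the gamma chain LAM-2 and either of the alpha chains EPI-1 and LAM-3. *epi-1* (WBGene00001328, chromosome IV from 10666823 to 10679291) was at 84.8, 85.8 and 89 CPM in N2 and 40.6, 70.4 and 49.3 CPM in the mutants. The mutant libraries lay below all N2 libraries and were spread far more widely. The log2 fold change was -0.70 (standard error 0.18, interval -1.11 to -0.28, edgeR adjusted p = 0.0684).

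*lam-3* (WBGene00002248, chromosome I from 10608466 to 10621435), the other alpha chain, is the least expressed member and rested on 210 to 382 counts per library. Its level was 15, 19 and 14.2 CPM in N2 and 11.4, 14.4 and 11.5 CPM in the mutants. Mutant replicate 2 overlapped the N2 range, and the log2 fold change was -0.37 (standard error 0.15, interval -0.72 to -0.03, edgeR adjusted p = 0.185).

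The shared chains had smaller fold changes than *epi-1*. *lam-1* (WBGene00002247, chromosome IV from 5173332 to 5183746) was at 80.6, 80.4 and 81.9 CPM in N2 and 62.6, 74.5 and 62.4 CPM in the mutants, without overlap. Its log2 fold change was -0.28 (standard error 0.09, interval -0.48 to -0.09, edgeR adjusted p = 0.0976). *lam-2* (WBGene00016913, chromosome X from 7143846 to 7151239) was at 44.8, 44.5 and 43.7 CPM in N2 and 27, 41.1 and 33.7 CPM in the mutants. These did not overlap either, and the log2 fold change was -0.39 (standard error 0.14, interval -0.71 to -0.06, edgeR adjusted p = 0.154).

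The proportions among laminin chains were compared within each library, where scaling plays no part. *lam-1* stood 1.87-fold above *lam-2* per kb in N2 and 2.03-fold in the mutants (log2 difference 0.12, two-sided exact permutation test, p = 0.5). *epi-1* relative to *lam-2* was lower in every mutant library, with log2 ratios of 0.03, 0.05 and 0.13 in N2 and -0.31, -0.12 and -0.35 in the mutants. The difference of -0.33 had p = 0.1 in the exact permutation test, the smallest p that 3 libraries against 3 allow, and 0.267 after Benjamini-Hochberg adjustment over the 8 ratios compared. The exons of *epi-1* are longer than those of *lam-2* (11247 against 6043 bases), and levels in mutant replicates 1 and 3 declined with length, as described after the members. *lam-3* relative to *lam-2* differed by 0.04 on the log2 scale (exact permutation p = 0.600). *epi-1* relative to *lam-3* went from 4.57-fold to 3.55-fold, with overlapping libraries (log2 difference -0.37, exact permutation p = 0.200).

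*nid-1* (WBGene00003738, chromosome V from 12910107 to 12917221) fell furthest of the 10. It encodes nidogen, a glycoprotein that binds laminin and type IV collagen and that in worms is needed for the placing of longitudinal nerves and the organisation of synapses, while basement membranes still form without it. Its level was 88.3, 82.1 and 89 CPM in N2 and 37.5, 46.2 and 41.5 CPM in the mutants. The strains were far apart, with every mutant library between 43.4 and 53.4% of the N2 mean. Its log2 fold change was -1.05 (standard error 0.09, interval -1.26 to -0.84, adjusted p = 0.00170, edgeR with Benjamini-Hochberg adjustment), and 1.73% of tested genes had a lower one. The adjusted p passed with each library left out in turn, and without mutant replicate 1 the log2 fold change was -0.98, just short of 2-fold.

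The proportion of nidogen mRNA to the mRNAs of its binding partners was lower in every mutant library. The log2 ratio of *nid-1* to *lam-2* per kb was 1.25, 1.15 and 1.29 in N2 and 0.74, 0.44 and 0.57 in the mutants, or 2.35-fold against 1.5-fold on average. The log2 ratio of *nid-1* to *emb-9* was -0.85, -0.94 and -0.87 in N2 and -1.66, -1.55 and -1.46 in the mutants, a ratio of 0.541 against 0.340. Neither ratio overlapped between the strains. The differences were -0.65 and -0.67 on the log2 scale, each with the smallest exact permutation p of 0.1 and 0.267 after adjustment over the 8 ratios.

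*unc-52* (WBGene00006787, chromosome II from 14647321 to 14684456) encodes perlecan, a heparan sulfate proteoglycan known for its many splice forms. It is the longest member, with 14253 bases of exon in 48 blocks and 17 annotated transcripts, which counts per gene do not separate. Its level was 57.9, 62.4 and 69.3 CPM in N2 and 30.4, 52.6 and 37.6 CPM in the mutants. The strains did not overlap, but mutant replicate 2 came close to the lowest N2 library. The log2 fold change was -0.65 (standard error 0.19, interval -1.09 to -0.22, edgeR adjusted p = 0.0869). Relative to *emb-9*, perlecan mRNA differed by -0.30 on the log2 scale, with overlapping libraries (two-sided exact permutation p = 0.200). The exons of *unc-52* are longer than those of *emb-9* (14253 against 5611 bases), and levels in mutant replicates 1 and 3 declined with length.

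*mig-6* and *cle-1* encode further matrix proteins. *mig-6* (WBGene00003242, chromosome V from 7827217 to 7842390) encodes papilin, which the migrating distal tip cells of the gonad require. It was at 97.8, 105 and 97.1 CPM in N2 and 59.5, 96.7 and 68.6 CPM in the mutants. Mutant replicate 2 lay just under the lowest N2 library, and the log2 fold change was -0.41 (standard error 0.16, interval -0.80 to -0.03, edgeR adjusted p = 0.181).

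*cle-1* (WBGene00000527, chromosome I from 8705668 to 8724279), a type XVIII collagen found at synapses and in basement membranes near neurons, was at 20.6, 20.9 and 22.1 CPM in N2. Its level in the mutants was 21.5, 20.8 and 22.7 CPM, so the strains overlapped throughout. Its log2 fold change was 0.03, with an interval from -0.17 to 0.23 (edgeR adjusted p = 0.846), which does not include a 2-fold change. Of its exon bases, 3.61% overlap *cdk-8* and 2.1% overlap C36B1.15 on the opposite strand, and the reads were counted without regard to strand. The overlap of any other member with a neighbour was 0.989% of its exon bases (*mig-6* with *txt-5*) or less.

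**Figure D2:**
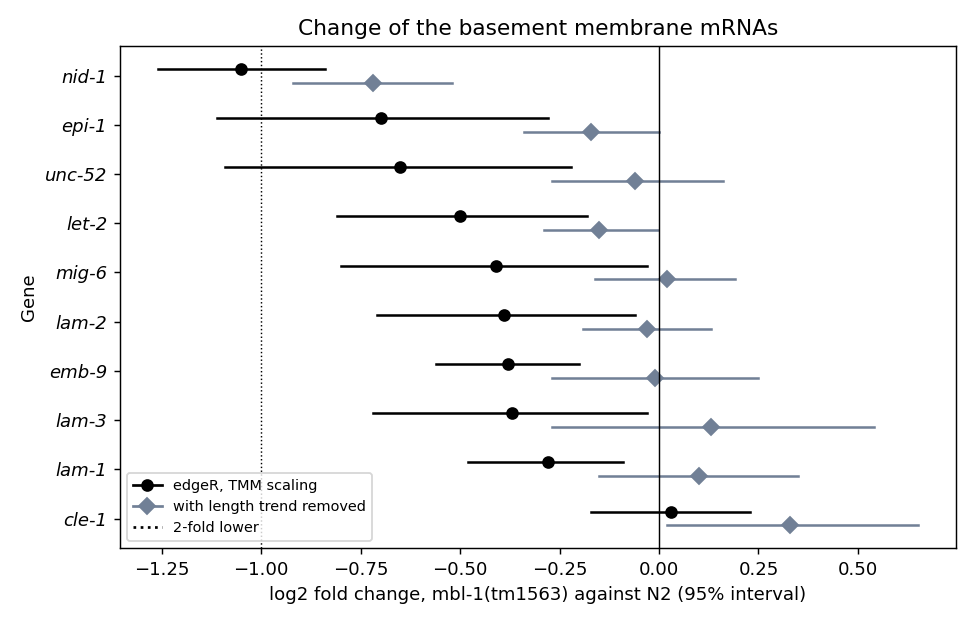
log2 fold change of each member in *mbl-1(tm1563)* against N2 with its 95% interval, as fitted by edgeR (black circles) and after each library's trend with gene length was removed (grey diamonds), with a dotted line at 2-fold lower. *nid-1* stays well below 0 in both fits (-1.05 and -0.72), whereas *unc-52* moves from -0.65 to -0.06.

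The 3 mutant libraries differed among themselves in the same order for most members. Replicate 2 was the highest mutant library in 9 of 10 members and replicate 1 the lowest in 7. In replicate 2, *nid-1* was at 53.4% of its N2 mean, while the other 9 members were between 81.4% for *epi-1* and 98.0% for *cle-1*. In replicate 1 the same 9 members ranged from 47.0% for *epi-1* to 101% for *cle-1*, and in replicate 3 from 57.0 to 107%. Without mutant replicate 2, 8 members passed the adjusted threshold, against 3 without replicate 1 and 1 without replicate 3. Genes called lower over the whole transcriptome, at the 2-fold limit as well, also changed in these fits. They numbered 232 without mutant replicate 2, 196 without replicate 1 and 55 without replicate 3, against 141 with all libraries.

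**Figure D3:**
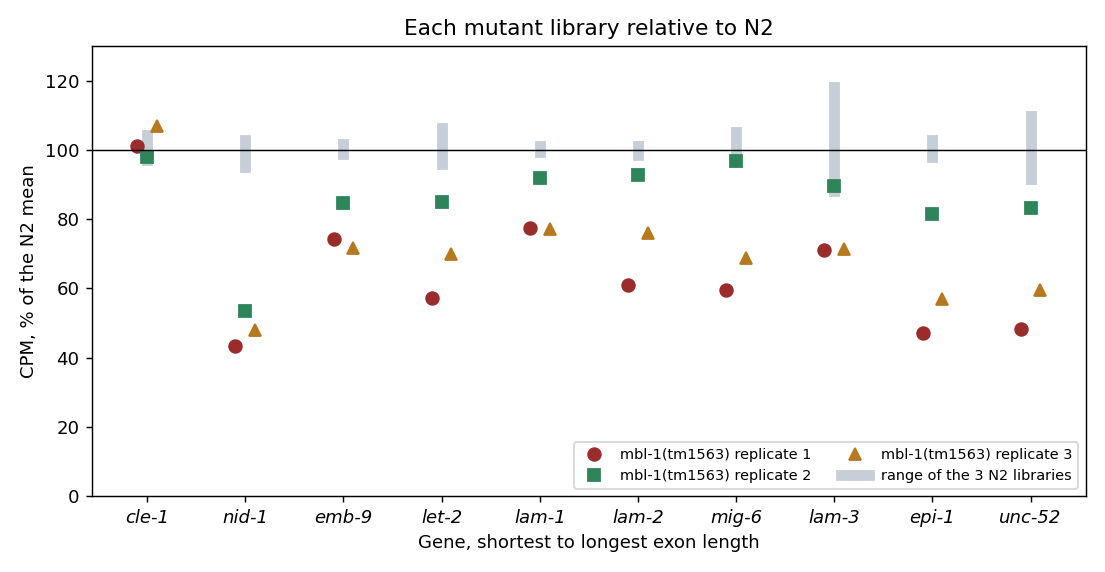
Level of each member in each *mbl-1(tm1563)* library as a percentage of the N2 mean, with genes ordered from the shortest to the longest exon length and the range of the N2 libraries as a grey bar. Only *nid-1* is near 50 in all mutant libraries (43.4 to 53.4%), and for 8 of the other 9 members replicate 2 lies above replicates 1 and 3.

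The members are long genes, and level changed with gene length across the whole transcriptome. The members' exons together cover 4378 bases (*cle-1*) to 14253 bases (*unc-52*), with a median of 5972, against a median of 1439 over all tested genes. The median log2 fold change fell from 0.04 among genes with under 1000 bases of exon to -0.23 among 504 genes of 4000 to 6000 bases, -0.40 among 124 genes of 6000 to 8000 bases and -0.44 among 85 genes of 8000 to 16000 bases. The share of genes with a log2 fold change below 0 was 87.7, 94.4 and 94.1% in these last classes, which hold all members. Of the 10 members 9 were below 0. In the class of 4000 to 6000 bases the median difference from N2 was -0.51 in mutant replicate 1, 0.03 in replicate 2 and -0.23 in replicate 3. In the class of 8000 to 16000 bases it was -0.93, -0.02 and -0.53. The order of the mutant libraries among long genes was thus that seen in most members.

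Within these classes *nid-1* was near the bottom and most members were not. Of the 504 genes of 4000 to 6000 bases, 3 had a lower log2 fold change than *nid-1* (0.595%), while 27.2% had a lower one than *emb-9*, 16.1% than *let-2*, 41.7% than *lam-1* and 89.9% than *cle-1*. In the class of 6000 to 8000 bases, 54% of genes were lower than *lam-2* and 45.2% lower than *mig-6*. In the class of 8000 to 16000 bases, 12.9% were lower than *epi-1*, 20.0% than *unc-52* and 62.4% than *lam-3*.

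**Figure D4:**
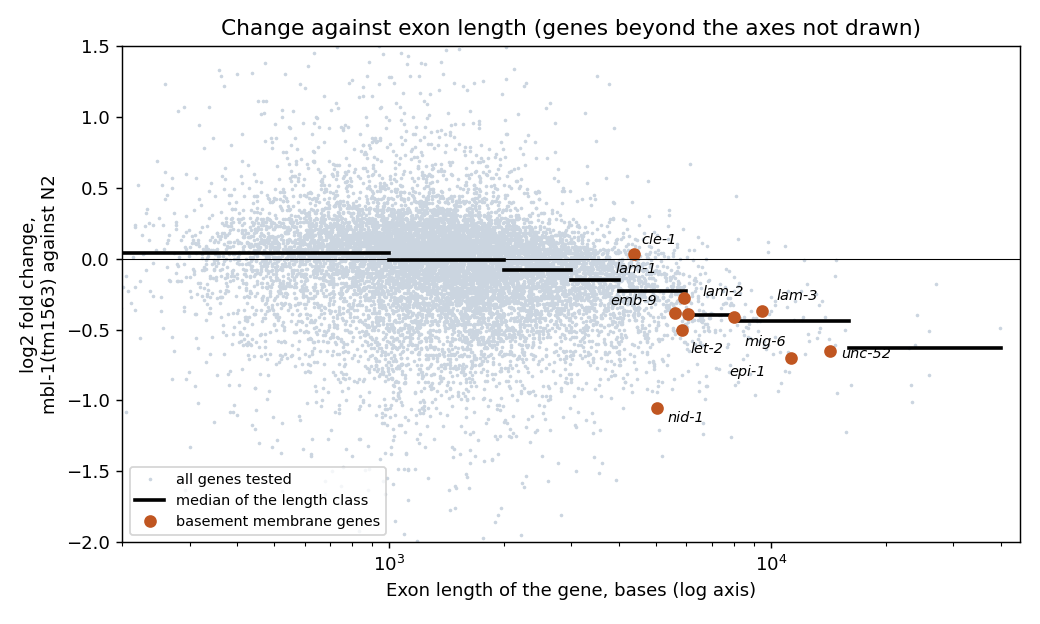
log2 fold change in *mbl-1(tm1563)* against N2 for all tested genes (grey) against exon length in bases (log axis), with the median of each length class as a black line and the basement membrane genes in orange. The median declines to -0.44 at 8000 to 16000 bases, and *nid-1* lies 0.82 below the median of its class.

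When each library's trend of level with exon length was removed before the test, *nid-1* was the only member that passed. Its log2 fold change became -0.72 (standard error 0.09, adjusted p = 0.00225, edgeR with Benjamini-Hochberg adjustment), below the 2-fold limit. In that fit 4.62% of 12229 genes were lower at an adjusted p under 0.05 and 7.11% higher. *emb-9* was then at -0.01 (standard error 0.12, edgeR adjusted p = 0.965), *let-2* at -0.15 and *epi-1* at -0.17. *unc-52* was at -0.06 and *lam-2* at -0.03, while *lam-1* turned to 0.10, *lam-3* to 0.13 and *mig-6* to 0.02. *cle-1* was at 0.33, with an adjusted p of 0.139 in edgeR. The median over the members was -0.02, against 0.05 over all genes in the same fit. Whether the trend with length came from the RNA, the libraries or the animals was not tested.

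Other genes of basement membrane assembly and turnover were counted from lists of known function. Of 60 listed genes, 59 were matched and 54 were tested, and 4 passed the adjusted threshold, all lower (against 3.67% of all tested genes lower and 1.79% higher). The median log2 fold change of these 54 genes was -0.19, and 40 were below 0, compared with 6814 of the 12335 genes tested. With the length trend removed their median was 0.01. In 13 of the 54 all mutant libraries lay below N2 and in 5 all lay above, against 17.9% and 14.7% of all tested genes.

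Among 13 other matrix components, *pxn-1* and *ost-1* fell. *pxn-1* encodes a peroxidasin, of the enzyme family that cross-links type IV collagen in animals. It was at 16.4, 14 and 12.7 CPM in N2 and 7.61, 8.35 and 7.59 CPM in the mutants. The mutant libraries were tightly grouped below all N2 libraries, with a log2 fold change of -0.87 (SE 0.13, adjusted p = 0.0103, edgeR with Benjamini-Hochberg adjustment). It was -0.60 (edgeR adjusted p = 0.0339) with the length trend removed, and the adjusted p was 0.0525 without N2 replicate 1 and 0.0765 without mutant replicate 3.

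*ost-1* encodes SPARC, a collagen-binding glycoprotein. From 118 ± 3.97 CPM in N2 it went down to 94.4 ± 6.64 CPM (SD, 3 libraries each), or by -0.33 ± 0.07 (standard error) on the log2 scale, at an edgeR adjusted p of 0.0476. Its adjusted p was 0.0600 with the length trend removed, and 0.191, 0.112, 0.197 and 0.176 without N2 replicate 1, 2 or 3 or mutant replicate 3. Of the 13 genes 11 were below 0, with a median of -0.29.

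Among the matrix proteases and their inhibitors, 9 genes were tested, and both genes that passed encode ADAMTS metalloproteases. *gon-1*, which remodels basement membrane as the gonad elongates, was called lower. It was at 17.3, 17.1 and 20.4 CPM in N2 and 4.66, 11.1 and 7.26 CPM in the mutants. Every mutant library lay below N2 but they were widely spread, and the log2 fold change was -1.26 (SE 0.27, adjusted p = 0.0383, edgeR with Benjamini-Hochberg adjustment). With the length trend removed it was -0.86 (edgeR adjusted p = 0.00536). Without N2 replicate 1, 2 or 3 or mutant replicate 3 the adjusted p was 0.132, 0.102, 0.152 and 0.169, and without mutant replicate 1 the log2 fold change was -0.99.

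*adt-2*, another ADAMTS gene, known for its part in body size and cuticle structure, was at 23.1 ± 1.46 CPM in N2 and 16.3 ± 1.37 CPM in the mutants (SD, n = 3). It fell by 0.51 on the log2 scale (SE 0.10, edgeR adjusted p = 0.0323), and the adjusted p was 0.250 with the length trend removed. Without N2 replicate 1, 2 or 3 or mutant replicate 3 it was 0.151, 0.0858, 0.124 and 0.112. The tested genes of this list had a median log2 fold change of -0.31, and 6 of 9 were below 0.

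No gene passed among the cell surface receptors, the collagen-modifying proteins or the enzymes of heparan sulfate synthesis. For the receptors, which tie cells to the matrix, 9 genes were tested, all 9 were below 0 and the median log2 fold change was -0.22. With the length trend removed, 4 of 9 were below 0, the median was 0.04, and *ptp-3*, a receptor tyrosine phosphatase named here after its values were seen, passed as higher (0.23, edgeR adjusted p = 0.0389). At an unadjusted p under 0.05, 2 receptors were lower and 0 higher, against 14.1% and 9.79% of all tested genes, and with DESeq2 0 passed. *ddr-1*, a discoidin domain receptor for collagen, was at -0.51 (standard error 0.17, edgeR adjusted p = 0.127), and *pat-2*, the alpha integrin of muscle attachments, at -0.31 (standard error 0.12, edgeR adjusted p = 0.172).

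The genes of collagen modification and secretion, 7 of which were tested, had a median log2 fold change of -0.22. At an unadjusted p under 0.05 (14.1% of all genes lower, 9.79% higher), 1 was lower and 1 higher, and with DESeq2 1 passed as higher. *crt-1*, the calreticulin chaperone of the endoplasmic reticulum, was at 0.28 (standard error 0.08, edgeR adjusted p = 0.0843), and passed as higher with the length trend removed (0.34, edgeR adjusted p = 0.0208). Of its exon bases 6.57% overlap *smut-1* on the other strand, and reads shared by overlapping genes were left out of the counts. *phy-2*, a catalytic subunit of the prolyl hydroxylase that stabilises collagen helices, was at -0.36 (standard error 0.15, edgeR adjusted p = 0.190).

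Of the heparan sulfate genes, whose products build the sugar chains carried by perlecan, all 16 were tested, 9 were below 0 and the median log2 fold change was -0.01. At an unadjusted p under 0.05 (14.1% of all genes lower, 9.79% higher), 0 were lower and 1 higher, and with DESeq2 1 passed as higher. *sqv-2*, a galactosyltransferase of the linker that joins the chain to the core protein, was at 0.27 (standard error 0.07, edgeR adjusted p = 0.0775). With the length trend removed it passed as higher (0.30, edgeR adjusted p = 0.0416). *hst-3.2*, a heparan sulfate sulfotransferase, was at 0.55 (standard error 0.30, edgeR adjusted p = 0.301), from less than 1 CPM in every library.

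**Figure D5:**
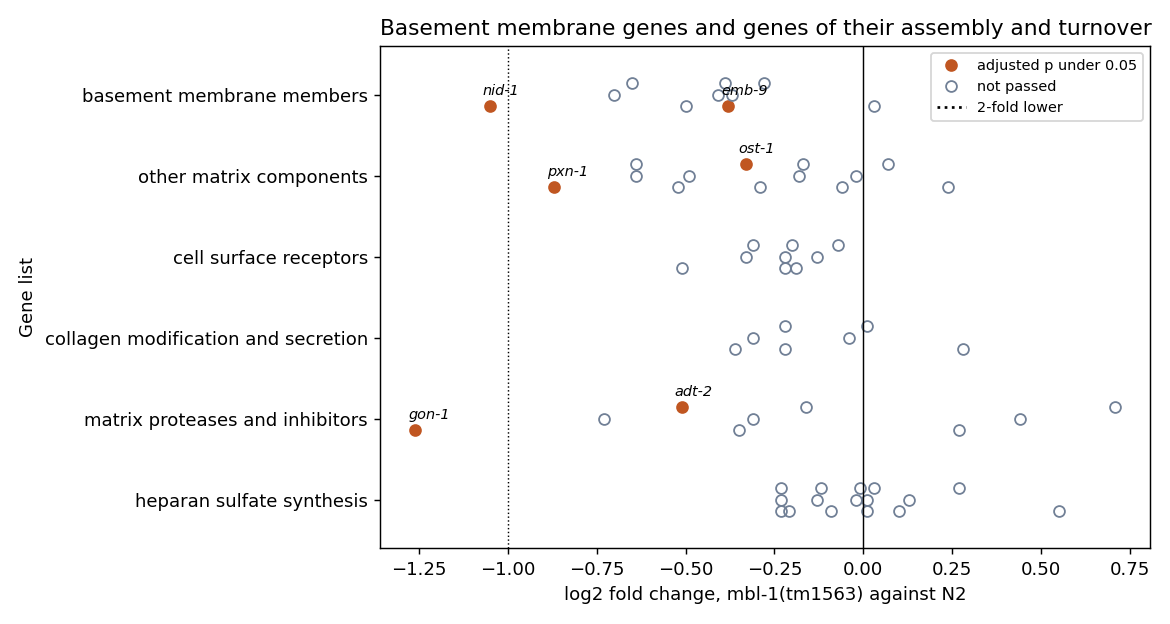
log2 fold change in *mbl-1(tm1563)* against N2 of each tested gene of the basement membrane and of 5 lists of related genes, with genes at an adjusted p under 0.05 filled and named and a dotted line at 2-fold lower. The 6 filled genes all lie left of 0, and *nid-1* and *gon-1* lie beyond the dotted line.

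Markers of the tissues that make or carry basement membranes were summed beside these values. At an edgeR adjusted p under 0.05 (3.67% of all tested genes lower), 2 of the 11 body wall muscle markers, 1 of 10 neuron, 1 of 5 somatic gonad and 1 of 4 hypodermis markers were lower. With the length trend removed 0 of the body wall muscle markers passed. In that fit 1 pharyngeal muscle, 1 neuron, 1 somatic gonad and 1 hypodermis marker passed as lower and 3 germline markers as higher. Of all genes in the same fit, 4.62% passed as lower and 7.11% as higher. The 5 pharyngeal muscle markers came to 51.9 to 58.6 CPM in the N2 libraries against 31.4 to 44.0 CPM in the mutants, and the 5 somatic gonad markers to 151 to 167 against 129 to 137 CPM. These sums, like those of the body wall muscle, neuron and intestine markers, were lower in every mutant library than in any N2 library. Most of the somatic gonad sum came from *inx-8* (mean 124 CPM in N2), the only marker of that list without overlap between the strains. The pharyngeal sum came mostly from *myo-1*, *myo-2* and *myo-5*. Their exons cover 6296 to 6457 bases, and levels in mutant replicates 1 and 3 declined with length. The 10 neuron markers came to 284 to 290.1 against 264 to 276 CPM, and the 7 intestine markers to 661 to 667 against 523 to 627 CPM. The largest part of the neuron sum, *snb-1* (mean 159 CPM in N2 and 168 CPM in the mutants), went the other way, with every mutant library above N2. Of the neuron markers 8 had a log2 fold change below 0, and in 4 all mutant libraries lay below N2. The 4 hypodermis markers came to 275 to 305 against 228 to 275 CPM, and the 9 germline markers to 6331 to 6863 against 5278 to 7782 CPM. The 3 coelomocyte markers (4.85 to 6.67 against 2.90 to 9.16 CPM) and the 4 glia markers (3.69 to 4.58 against 3.78 to 4.15 CPM) overlapped between the strains. No marker was at 0 in all libraries. Among the mutants, replicate 2 had the highest sum of body wall muscle, pharyngeal muscle, somatic gonad, germline, intestine and glia markers, as it had the highest level of 9 of the 10 members. The part of these tissues in the members' levels was not tested.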

How the data were processed

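Poly(A) RNA of 3 N2 and 3 *mbl-1(tm1563)* samples was made into stranded libraries and sequenced on a single lane. The authors aligned reads to the WBcel235 transcriptome with STAR and deposited raw HTSeq counts per gene, counted without regard to strand. The versions of both tools are not given in the sources used here. Multi-mapped reads and reads shared by overlapping genes are left out of these counts.

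Symbols, positions and exon lengths came from annotation release 115 of WBcel235, which held 46364 of 46726 identifiers (99.2%) and named 43623 (93.4%). The listed symbols, *tag-225* and *opt-2*, were not matched. The members and lists were chosen with earlier results of these data known.

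The test was that of edgeR 4.0.16 in R 4.3.3 (filterByExpr with minimum count 10 and minimum total 15, TMM, robust quasi-likelihood fit, strain as the only factor), and p-values were adjusted by the Benjamini-Hochberg method over 12335 genes. They set the difference between the strains against the spread among libraries of the same strain. Genes were called at an adjusted p under 0.05 and at least 2-fold. The methods were tested on simulated counts. These held no trend with gene length and the same spread in every library, so they could not show how well removal of the trend works. Every pair of libraries differed by more than sampling noise (lowest chi-square per degree of freedom 3.59), and all were used. Ratios of members were taken within a library and compared by two-sided exact permutation tests.

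Alternatives were RLE scaling, upper quartile scaling and library size alone, other filters, DESeq2 1.42.0, the replicate number as a block, each library left out, and removal of each library's lowess trend (span 0.5) of log2 CPM (prior count 2) against exon length. The genes named are the members, *mbl-1*, and from each list every gene with an adjusted p under 0.05 and the 2 with the smallest p.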

Additional observations from a re-analysis of the deposited data

How the results depend on the processing

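*nid-1* passed the adjusted threshold in all 15 alternative fits, with log2 fold changes from -1.09 to -0.72 and edgeR or DESeq2 adjusted p from 7.48e-16 to 0.0230. It missed the 2-fold limit with scaling by library size alone (-0.97), when mutant replicate 1 was left out and with the length trend removed, alone or with the replicate block (-0.73). The number of members called lower, 1 as reported, was therefore 0 in these fits, 0 to 1 with a library left out, and 2 without a limit on the fold change. The number lower at an adjusted p under 0.05, 2 as reported, was 1 with library size alone, 4 with upper quartile scaling, 5 with DESeq2, 1 with the replicate block, 1 with the length trend removed, alone or with the block, and 1 to 8 with a library left out. Over all genes, 86 were called higher and 141 lower; these became 33 to 138 and 55 to 232 with a library left out, and 221 and 453 without a limit on the fold change. With the length trend removed, alone and with the block, the sign turned for *lam-1* (0.10 and 0.08), *lam-3* (0.13 and 0.13) and *mig-6* (0.02 and 0.02), and *cle-1* ranged from -0.0033 (without mutant replicate 3) to 0.10 with a library left out. The causes were not tested. Of the 8 ratios, 7 kept their direction under the alternatives run, and that of *lam-3* to *lam-2* (0.04) was -0.01 without N2 replicate 1, -0.03 without N2 replicate 3 and -0.06 without mutant replicate 1. Among those that kept their direction, *emb-9* to *let-2* went from 0.13 to 0.01 without mutant replicate 1. In the same setting *lam-1* to *lam-2* went from 0.12 to 0.0032.

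Same-numbered libraries did not deviate together throughout (correlations 0.158, 0.0134 and 0.145), so the numbers were not taken as pairs, and N2 replicate 3 correlated best with mutant replicate 2 (0.166). With the replicate block 63 genes were called higher and 107 lower, and the edgeR adjusted p no longer passed for *emb-9* (0.0696), *mbl-1* (0.0543), *gon-1* (0.0544), *ost-1* (0.0953) and *adt-2* (0.0817). *gon-1* also missed without a filter on low counts (0.0545), *ost-1* with RLE scaling (0.0595), library size alone (0.0863) and no filter (0.0753), and *emb-9* (0.0568) and *adt-2* (0.0628) with library size alone. With 3 libraries a strain the exact tests cannot go below 0.1, and *lam-3*, with 210 to 382 counts, had the widest relative spread among the N2 libraries.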
